A study of Mus musculus with 2 samples.

Results

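The genes of steroid, thyroid and retinoid receptors were examined in the hearts of newborn mice for peaks of EP300 (p300), a histone acetyltransferase that transcription factors recruit to enhancers and promoters. The set holds 10 genes: the retinoid receptors Rara and Rxra, the thyroid hormone receptors Thra and Thrb, the corticosteroid receptors Nr3c1 and Nr3c2, the orphan receptors Nr2f1 and Nr2f2, and the hormone-converting enzymes Hsd11b1 and Dio3. A peak belonged to a gene when its summit lay closest to a transcription start site (TSS) of that gene's protein-coding transcripts and no more than 100 kb away. Such an assignment goes by distance and shows no contact between peak and gene. Of the 17372 peaks of the authors' optimal list, on mm10 (GRCm38), 22 met this rule. The optimal list was thresholded by the irreproducible discovery rate (IDR), a measure of how alike peaks rank between lists. How its peaks were selected is not stated further, and it holds some weak pooled calls while lacking stronger ones.

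Both ChIP-seq samples were heart tissue of strain B6NCrl at postnatal day 0, precipitated with an EP300 antibody. They form 1 group of 2 replicates, with no treatment, genotype or second tissue to compare. The labels give both the same biosample and donor identifiers, so the spread between them may be technical, and no label says how many animals were pooled. The lists of replicate 1, of replicate 2 and of the pooled reads hold 300000 calls each, so a call in a full list is of little weight by itself. The leading peaks of a list are its 17372 of highest signal, the authors' peak height above control. A peak is called found in both replicates when a leading peak of each has its summit within 100 bp. A deposited −log10 q of at least 2 was reached by 11112 calls of replicate 1 but only 3385 of replicate 2. Most leading peaks of replicate 2 are thus below that level, and a match there may be a weak call. Signal values rank peaks within a list only. The files hold no read counts, so the depth is unknown. Heart muscle genes carried many peaks in the optimal list, with 27 at Myh6, 21 at Tnnt2 and 15 at Gata4, while the liver genes Alb and Apoa1 and the neuronal gene Syt1 had 0. The neuronal gene Rbfox3 had 2.

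Nuclear receptors are transcription factors that small lipophilic hormones switch on. RXRA, the product of Rxra, pairs with the thyroid hormone and retinoic acid receptors on direct repeats of the half-site AGGTCA, whereas the glucocorticoid receptor (Nr3c1) and the mineralocorticoid receptor (Nr3c2) bind inverted repeats of AGAACA as homodimers. Bound receptors recruit EP300 and its relative CBP. In rodent heart muscle, thyroid hormone drives the switch from beta to alpha myosin heavy chain after birth, and glucocorticoids promote maturation around birth.

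The sequences below lie around some of the summits on which the results turn, all with a motif match. Each is the 200 bp window centred on a summit, read from the RefSeq GRCm38.p6 genome (the sequence of mm10) on the plus strand, and the capitals mark matches, on either strand, to the motifs named. Not every window held a match: that of the strongest Thra peak (signal 62.4) had none of the 12 motifs searched. The first printed is the strongest peak assigned to any of the genes, in an intron of Rara. It has an E-box (CAGCTG) centred 73 bp from the summit and a pair of ETS matches (AGGAAG) nearer to it.
Rara, chr11:98942111-98942310: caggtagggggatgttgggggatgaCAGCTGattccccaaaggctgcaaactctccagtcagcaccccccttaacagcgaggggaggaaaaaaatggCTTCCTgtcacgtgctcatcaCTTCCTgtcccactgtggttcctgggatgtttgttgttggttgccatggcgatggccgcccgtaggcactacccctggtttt
The next is the one window of the 22 with a full steroid receptor element, searched as GNACA and TGTNC with any 3 bases between them. This window lies in Rara too, and the element is centred 66 bp from the summit.
Rara, chr11:98936286-98936485: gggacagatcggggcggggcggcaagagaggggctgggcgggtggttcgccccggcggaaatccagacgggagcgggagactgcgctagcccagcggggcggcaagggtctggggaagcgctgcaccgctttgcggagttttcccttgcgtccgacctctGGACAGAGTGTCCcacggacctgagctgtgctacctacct
The one window with an AGGTCA half-site is an intronic peak of Thra.
Thra, chr11:98754982-98755181: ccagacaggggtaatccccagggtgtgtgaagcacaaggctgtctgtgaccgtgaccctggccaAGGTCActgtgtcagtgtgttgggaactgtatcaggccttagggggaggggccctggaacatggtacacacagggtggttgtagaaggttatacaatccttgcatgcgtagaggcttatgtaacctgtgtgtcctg
The strongest peak assigned to Rxra held an ETS match and an E-box, centred 70 bp and 91 bp from the summit.
Rxra, chr2:27774366-27774565: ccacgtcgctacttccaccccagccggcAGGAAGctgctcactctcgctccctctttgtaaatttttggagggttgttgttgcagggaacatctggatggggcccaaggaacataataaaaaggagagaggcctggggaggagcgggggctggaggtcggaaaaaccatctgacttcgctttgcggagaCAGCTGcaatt
The strongest peak assigned to Nr2f2 held a TEAD match (CATTCC) and an AP-1 match (TGANTCA), centred 73 bp and 93 bp from the summit.
Nr2f2, chr7:70267025-70267224: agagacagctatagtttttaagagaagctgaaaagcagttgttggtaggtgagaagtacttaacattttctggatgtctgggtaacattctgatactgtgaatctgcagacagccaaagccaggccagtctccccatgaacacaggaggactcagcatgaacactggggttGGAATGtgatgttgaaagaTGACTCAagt
The last is an intronic peak of Nr3c2 that exceeds all 22 in signal but lies beyond 100 kb of the TSS. It has an E-box centred 65 bp from the summit.
Nr3c2, chr8:77133069-77133268: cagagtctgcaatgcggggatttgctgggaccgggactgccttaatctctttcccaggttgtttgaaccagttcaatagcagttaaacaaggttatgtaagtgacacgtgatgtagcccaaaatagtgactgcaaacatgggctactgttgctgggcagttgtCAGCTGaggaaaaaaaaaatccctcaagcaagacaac

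The 22 peaks were spread very unevenly over the genes. Rara had 10, Rxra 5, Thra 3, and Nr3c1 and Nr2f2 2 each, while Nr3c2, Thrb, Nr2f1, Hsd11b1 and Dio3 had 0. Thus 5 of the 10 genes had a peak, against 31.8% of 21864 protein-coding genes. A gene with a large territory, the bases that lie closest to its TSSs and within 100 kb, collects more peaks by distance alone. In proportion to territory the whole set would hold 17.1 peaks, and its 12.5 peaks per Mb were 1.29 times the 9.71 per Mb of all genes (95% exact Poisson interval of the ratio 0.807 to 1.95, counting error only). That interval includes 1. The ratio was 1.76 (1.16 to 2.56) in the conservative list and 1.73 (1.01 to 2.77) for optimal peaks with a −log10 q of at least 2. It was 1.79 (1.20 to 2.55) for the leading peaks of replicate 2, and 0.736 with a limit of 1 Mb. These intervals count neighbouring peaks as independent, and Rara alone held 13 of 27, 9 of 17 and 13 of 30 peaks in those 3 lists. They are therefore no measure of the receptor genes as a set. Rara and Thra, singled out here after their values were seen, held 13 peaks in a territory where 0.802 would be in proportion. The other 8 genes held 9 where 16.3 would be, but they were not alike. Rxra held 5 where 1.95 would be, Nr3c1 and Nr2f2 were near proportion, and the remaining 5 had 0. Without Rara the density was 7.04 peaks per Mb. Of the 21864 genes, 102 had 10 or more peaks, Rara included.

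**Figure D1:**
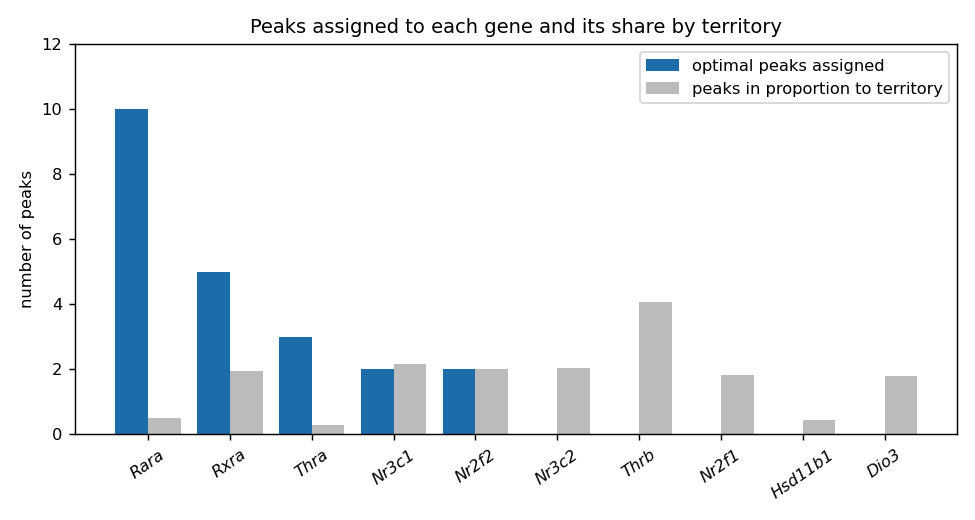
Number of optimal peaks assigned to each gene (blue bars) and the number in proportion to its territory (grey bars), with the genes on the horizontal axis. Rara (10 peaks against 0.522) and Thra (3 against 0.280) lie far above their grey bars, and Rxra (5 against 1.95) lies above its own. Nr3c1 and Nr2f2 have bars of about equal height, and Thrb has 0 peaks against 4.07.

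Rara encodes retinoic acid receptor alpha. All 10 of its peaks lay inside the gene (chr11:98927818-98974942, plus strand), at its introns, and formed a single cluster of 33461 bp when summits within 10 kb were joined. With a summed signal of 427.0 that cluster ranked 30 among 10550. Rara has 5 annotated TSSs, at the gene start and 9.88, 9.90, 11.9 and 32.6 kb into the gene, and the peaks lay around them rather than at one promoter.

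The strongest peak of Rara (chr11:98941963-98942458) had a signal of 70.0 and ranked 1306 in the optimal list. Its nearest summits ranked 1258 in replicate 1 and 2666 in replicate 2, 11 bp and 58 bp away. It lies 14.4 kb into the gene, 2500 bp downstream of the nearest TSS, and is the window with the E-box and ETS matches printed first. The strongest call of replicate 2 at Rara, of rank 1042, had its summit at 98942068. That is inside the bounds of this peak, but farther from its summit than the call of rank 2666.

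The second of the Rara peaks by signal (64.0, chr11:98951268-98951763) lay 8896 bp upstream of the nearest TSS and ranked 894 in replicate 1 and 6073 in replicate 2. The third (52.8, chr11:98942783-98943278) ranked 1019 in replicate 1 and 13633 in replicate 2. The fourth (49.2, chr11:98930908-98931403), 3338 bp into the gene, ranked 2077 in replicate 1 and 19214 in replicate 2, which is outside the leading peaks of that replicate. These 3 peaks stood higher in replicate 1. The fifth (36.3, chr11:98936138-98936633), which holds the steroid receptor element, ranked 5576 in replicate 1 and 7589 in replicate 2.

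The other 5 peaks of Rara had signals between 24.3 and 35.3. Among them were the gene's 2 promoter-proximal peaks, that is with a summit within 1 kb of a TSS: one 40 bp upstream of an internal TSS (signal 29.5, ranks 11115 in replicate 1 and 7879 in replicate 2) and one 625 bp upstream of the TSS at 32.6 kb (signal 35.3, ranks 8026 and 14637). The peak farthest into the gene (34.3, 35.9 kb from the gene start) stood higher in replicate 2, with rank 43797 in replicate 1 and rank 2642 in replicate 2. In all, 7 of the 10 Rara peaks ranked higher in replicate 1, with a median rank of 5129 in replicate 1 and 9664 in replicate 2. Over the optimal peaks as a whole the median ranks were 8864 and 8862, and 7842 of 15076 ranked higher in replicate 1. Of the peaks of all the receptor genes, 11 of 21 did.

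**Figure D2:**
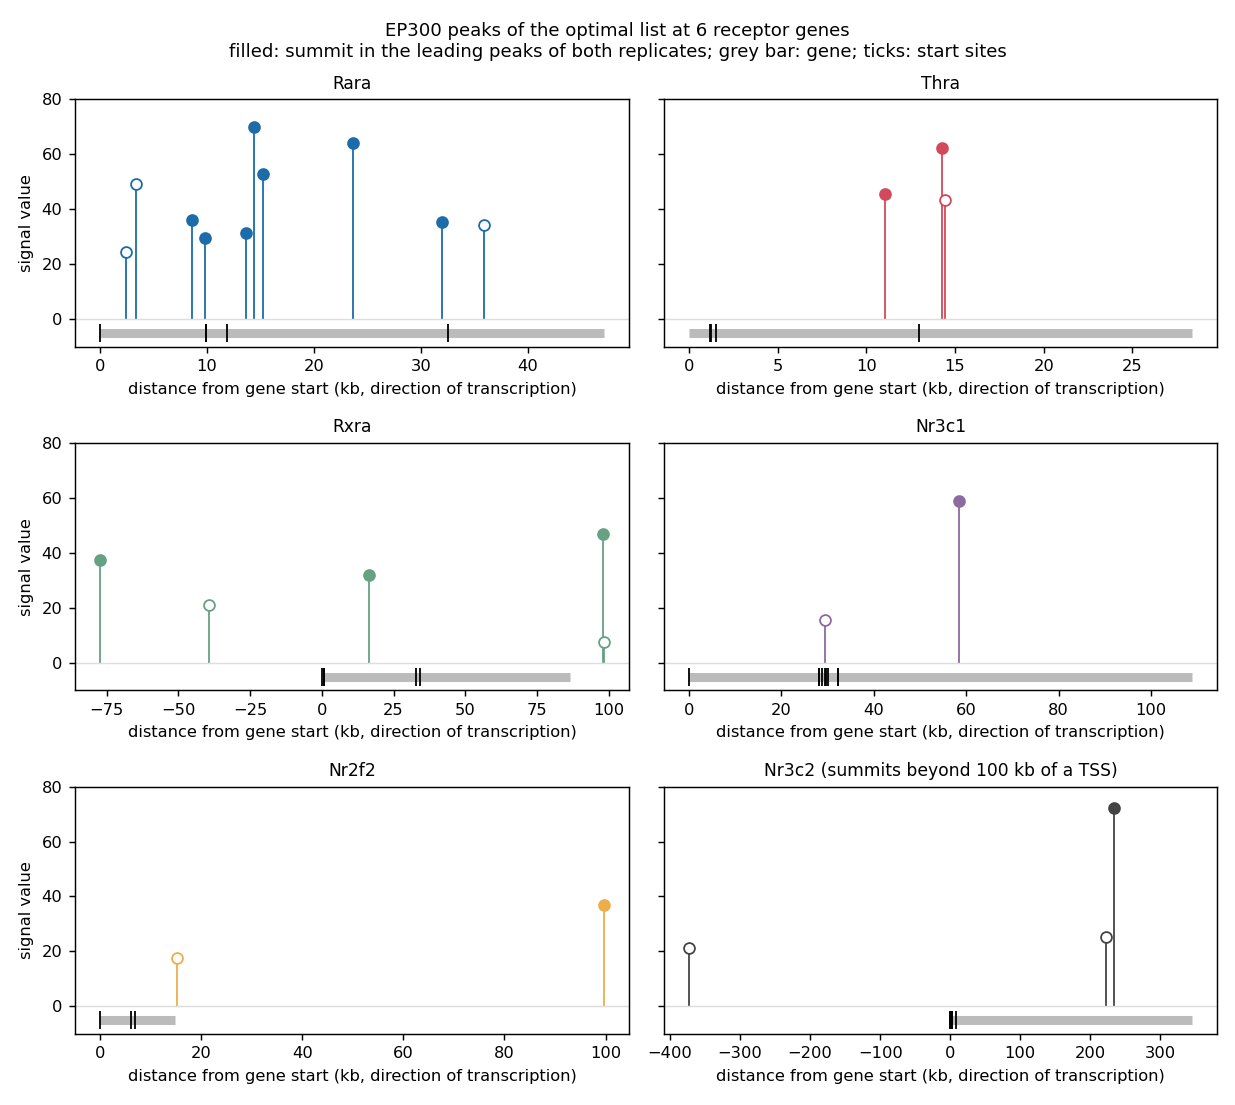
Signal value of each optimal peak (vertical axis, authors' peak height) against its distance from the gene start in kb along the direction of transcription, for Rara, Thra, Rxra, Nr3c1, Nr2f2 and Nr3c2. Filled circles mark summits found among the leading peaks of both replicates. The peaks of Rara lie throughout the gene, and those of Rxra and Nr2f2 mostly outside it. The Nr3c2 panel shows the 3 summits nearest to a TSS of Nr3c2 but beyond 100 kb. The strongest is at 72.4, and the one of 21.1 lies upstream of the gene. The peak of 49.0 inside Nr3c2, nearer to Arhgap10, is not drawn.

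Rxra encodes retinoid X receptor alpha, the shared partner of the retinoic acid, thyroid hormone and several other receptors. Of its 5 peaks, 1 lay in an intron and 4 in intergenic DNA. The strongest (46.8, chr2:27774218-27774713) lay downstream of the gene, 63883 bp from the nearest TSS, with rank 3255 in replicate 1 and 9894 in replicate 2. The next nearest gene, Col5a1, was 111959 bp away. A peak 77254 bp upstream (37.2, chr2:27598938-27599433) ranked 7902 in replicate 1 and 5787 in replicate 2, and is about as far from Wdr5 (79425 bp). The intronic peak (32.0, chr2:27692579-27693074) ranked 7333 in replicate 1 and 9903 in replicate 2.

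The remaining Rxra peaks were weaker. The one 39459 bp upstream (20.9, chr2:27636733-27637228) ranked 9953 in replicate 2 with a summit 1 bp away, while the closest summit of replicate 1, of rank 17643, was 187 bp away. The fifth (chr2:27774423-27774918) had a signal of 7.43, a deposited −log10 q of 0.0382 and rank 246284 in the pooled list. Its summit is 205 bp from that of the strongest Rxra peak, and the replicate calls nearest to both are the same. With neighbouring calls merged, Rxra had 4 sites.

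Thra encodes thyroid hormone receptor alpha, the main such receptor of heart muscle. Its 3 peaks lay in introns, within 3410 bp of each other. The strongest (62.4, chr11:98754634-98755129), 1296 bp downstream of an internal TSS, ranked 1777 in the optimal list, 2832 in replicate 1 and 1624 in replicate 2. A peak 1914 bp upstream of that TSS (45.5, chr11:98751424-98751919) ranked 7468 in replicate 1 and 3387 in replicate 2. Both were thus found in both replicates. The third (43.5, chr11:98754834-98755329), whose summit is 200 bp from the strongest and which holds the AGGTCA half-site, ranked 3042 in replicate 1 but 43273 in replicate 2. The optimal list had no peak at the 5′ end of Thra.

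Thra and Rara are near neighbours on chromosome 11. The 254.3 kb from 10 kb before Thra to 10 kb after Rara held 29 optimal peaks, or 114.0 per Mb, against 6.36 per Mb of the genome. Of these, 9 belonged to Nr1d1, the circadian repressor REV-ERB alpha, which overlaps the 3′ end of Thra on the opposite strand, 6 to Msl1 and 1 to Casc3. The strongest peak of the stretch, of 96.8, belonged to Nr1d1. The stretch was bounded by Thra and Rara after their counts were seen, and 13 of its 29 peaks are theirs. Its high density follows in part from that choice. Another 3 peaks inside Thra, with signals of 14.3 to 36.1, were nearer to the TSS of Nr1d1, so the count of 3 for Thra depends on this rule.

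Thrb encodes thyroid hormone receptor beta. It had 0 optimal peaks within its 377830 bp body or assigned to it, in a territory of 419.3 kb where 4.07 would be in proportion. Its strongest call in the pooled list lay 32 bp from a TSS with a signal of 12.9, a −log10 q of 0.399 and rank 45593. The nearest call of replicate 1 ranked 52799, and replicate 2 had none within 248 bp. No leading peak of either replicate was assigned to Thrb.

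Nr3c1 encodes the glucocorticoid receptor. The stronger of its 2 peaks lay in an intron (58.9, chr18:39460747-39461242), 26237 bp downstream of the nearest TSS, and ranked 2063 in the optimal list, 3874 in replicate 1 and 1615 in replicate 2. Its summits in the replicates were 10 bp and 0 bp away. The other peak lay 128 bp upstream of a TSS (15.4, chr18:39489768-39490263), with a −log10 q of 0.713. Replicate 1 held a call there of rank 132336 and replicate 2 none within 248 bp. The intronic peak was thus in both replicates, and the promoter peak, of rank 30844 in the pooled list, was among the leading peaks of neither.

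Nr3c2 encodes the mineralocorticoid receptor, which in heart also binds glucocorticoids. It had 0 peaks within 100 kb of a TSS, and 2.03 would be in proportion to its territory. The gene itself is 345571 bp long. Inside it the optimal list held 3 peaks beyond the limit. The strongest (72.4, chr8:77132921-77133416), 224897 bp from the TSS, ranked 1177 in the optimal list, 3113 in replicate 1 and 967 in replicate 2. Its signal was above that of all 22 assigned peaks. A second (25.1, chr8:77122298-77122793) ranked 12770 in replicate 1 and 20254 in replicate 2. The third (49.0, chr8:77232430-77232925) was in both replicates but 285105 bp from the TSS of Arhgap10, which is nearer than that of Nr3c2. Outside the gene, an intergenic peak nearest to Nr3c2 (21.1, chr8:76526146-76526641) lay 373048 bp upstream.

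Of the peaks nearest to these genes, the farthest within the 100 kb limit was the Nr2f2 peak at 92796 bp. The closest one beyond that limit was the second Nr3c2 peak at 214274 bp. A limit of 50 kb would leave Rxra 2 of its 5 peaks and Nr2f2 1 of its 2. Within 100 kb the strongest pooled call of Nr3c2 had a signal of 14.2 and rank 36476, with rank 152256 in replicate 1 and 17307 in replicate 2. Rank 17307 is just inside the leading peaks, so replicate 2 taken alone gives Nr3c2 1 peak.

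Nr2f1 and Nr2f2 encode the orphan receptors COUP-TFI and COUP-TFII. Nr2f2 is needed in mouse for atrial and vein identity. Its stronger peak (37.0, chr7:70266877-70267372) lay 92796 bp from the TSS, beyond the end of the gene and within the long non-coding RNA gene Gm29683, and ranked 10788 in replicate 1 and 4578 in replicate 2, with summits 1 bp and 0 bp away. The next protein-coding gene, Gm10295, was 1084360 bp off. The weaker (17.6, chr7:70351321-70351816) lay 8352 bp downstream of a TSS, just past the 3′ end of the gene, with ranks of 47628 and 42713 in replicates 1 and 2.

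Nr2f1 had 0 peaks within 100 kb and 1 beyond it, 283667 bp upstream (29.8, chr13:78483176-78483671), of rank 6751 in replicate 1 and 25498 in replicate 2. Its strongest pooled call within 100 kb had a signal of 13.9 and rank 38270. That call ranked 20326 in replicate 2, and replicate 1 had none within 248 bp.

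The enzymes Hsd11b1 and Dio3 had 0 peaks. Hsd11b1 encodes 11 beta-hydroxysteroid dehydrogenase type 1, which regenerates active glucocorticoid in tissues. Its strongest pooled call, in an intron (signal 13.9, rank 38107), ranked 32172 in replicate 1 and 201958 in replicate 2. Dio3 encodes the deiodinase that inactivates thyroid hormone. Its strongest pooled call had a signal of 11.0 and a −log10 q of 0.198 and stood at rank 72247. It lay 68051 bp from the TSS and ranked 194381 in replicate 1 and 170570 in replicate 2. Neither gene had a leading peak in either replicate.

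The peaks of these genes were compared with all optimal peaks on the main chromosomes in 4 further respects, each as a share with its 95% exact (Clopper-Pearson) interval, which covers counting error only. A summit of the leading peaks of both replicates lay within 100 bp for 14 of the 22 (63.6%, interval 40.7% to 82.8%), against 40.9% of 17339. The optimal list was itself selected from these replicates, so this share is no independent measure of agreement. It was 40.9% against 29.8% when 50 bp was allowed, and 13.6% against 15.1% for the 5000 leading peaks of each replicate. The 22 peaks had a median signal of 36.6 and the whole list one of 30.6, and the part of signal in these shares was not tested.

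A deposited −log10 q of at least 2 was reached by 17 of the 22 (77.3%, interval 54.6% to 92.2%), against 57.7% of all optimal peaks. The same summit stood in the authors' conservative list for 18 of the 22 (81.8%, interval 59.7% to 94.8%), against 67.5%. Promoter-proximal summits were 3 of the 22 (13.6%, interval 2.91% to 34.9%), against 33.5%. These 3 were the 2 of Rara and the 1 of Nr3c1. All 4 intervals include the share of the whole list. The 22 lie within 100 kb of a TSS by rule, as did 15570 optimal peaks. Among those 15570 the promoter-proximal share was 37.3% and the share found in both replicates 40.2%, both just outside the intervals of the 22. Those intervals count neighbouring peaks as independent, though 10 of the 22 form 1 Rara cluster. Rara alone held 7 of the 14 peaks found in both replicates, besides 2 of the 3 near promoters. The intervals are therefore no measure of the receptor genes as a set. With 2 kb in place of 1 kb, which took in 2 more peaks of Rara and all 3 of Thra, the promoter-proximal share was 36.4% of the 22, against 37.5% of all optimal peaks and 41.8% of those within 100 kb. The other 19 peaks were intronic (13) or intergenic (6).

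**Figure D3:**
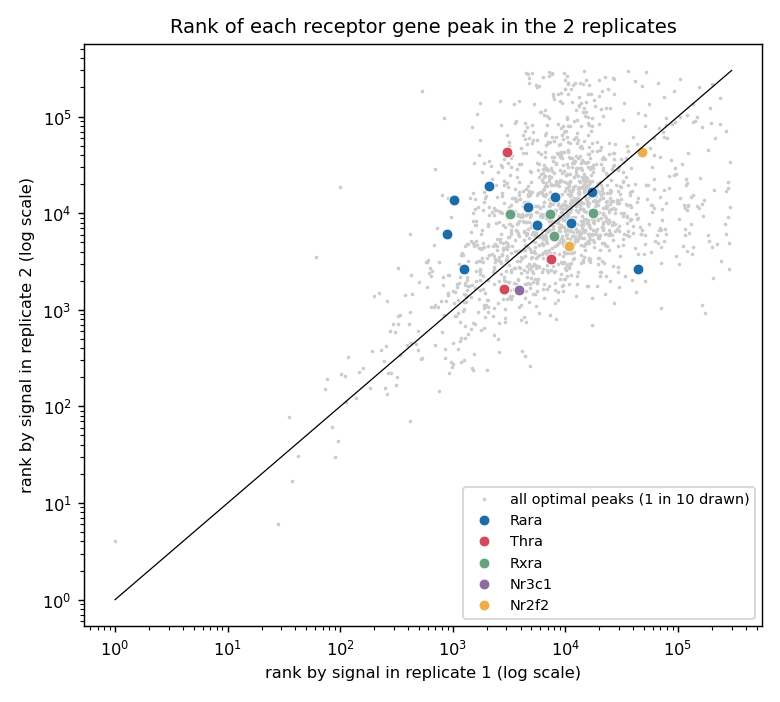
Rank by signal in replicate 1 (horizontal axis, log scale) and replicate 2 (vertical axis, log scale) of the calls nearest to each of 21 of the 22 peaks, coloured by gene, over 1 in 10 of all optimal peaks in grey. The Nr3c1 promoter peak has no call in replicate 2 and is not drawn. Points above the line rank higher in replicate 1, as 7 of the 10 Rara peaks do, and 1 Rara peak lies far below it.

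Rara led every list of peaks. It had 13 peaks in the conservative list, 10 among the leading peaks of replicate 1, 13 among those of replicate 2 and 13 among those of the pooled list. Thra had 4, 5, 5 and 5 in these lists. Rxra had 6, 3, 5 and 3. Nr3c1 had 2, 4, 3 and 2, and Nr2f2 2, 2, 3 and 2. Thrb, Nr2f1, Hsd11b1 and Dio3 had 0 in each.

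**Figure D4:**
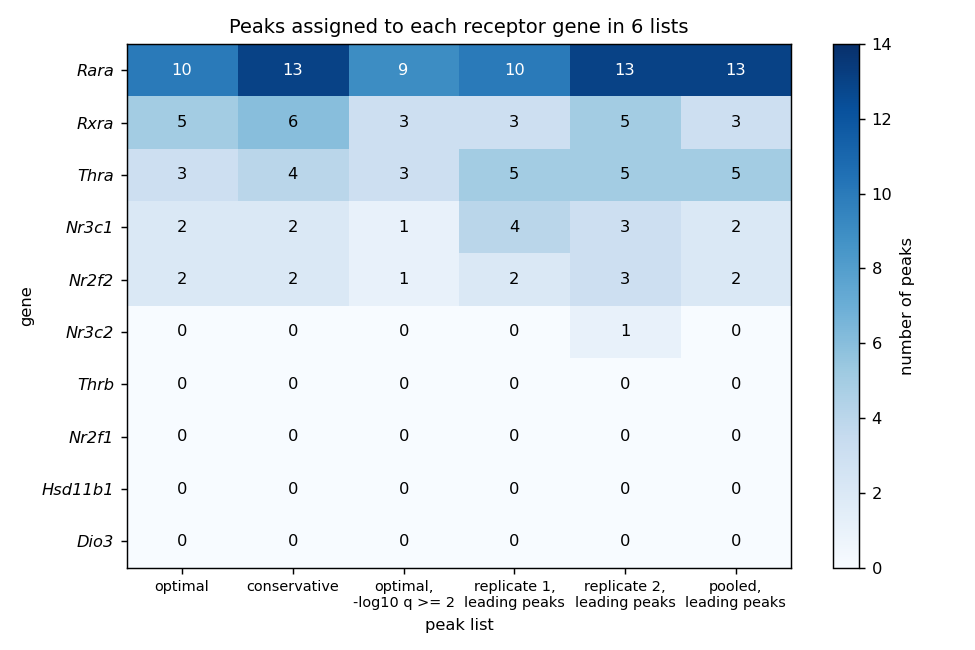
Number of peaks assigned to each gene (rows) in the optimal list, the conservative list, the optimal peaks with a −log10 q of at least 2, and the leading peaks of replicate 1, replicate 2 and the pooled list (columns), with darker blue for more peaks. The upper 5 genes have peaks in all 6 columns, and Nr3c2 has 1 in replicate 2 alone.

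The sequence under the summits was searched for 12 motifs on both strands in the 200 bp windows, and compared with all 17339 windows of the optimal list. The full steroid receptor element stood in 1 of the 22 windows (4.55%, interval 0.115% to 22.8%) and in 2.09% of all windows. In windows 1 kb to either side of all summits it stood in 0.366%. The AGGTCA half-site stood in 1 of the 22 (4.55%, same interval), against 15.1% of all windows and 12.6% of all flanks. Direct repeats of AGGTCA spaced by 1, 4 or 5 bases were in 0 of the 22, which says only that these letters are not in these windows, and in 11, 4 and 4 of all windows. AGAACA was in 3 of the 22, against 15.7% of all windows.

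Motifs of other heart regulators stood in 2 to 6 of the 22 windows each, some above and some below the share of all windows. The E-box was in 6 of the 22 (27.3%, interval 10.7% to 50.2%), against 17.8% of all windows, and 4 of those 6 were in Rara. The TEAD site was in 4 (18.2% against 14.9%), the AP-1 site in 3 (13.6% against 7.40%), the GATA site AGATAA in 2 (9.09% against 13.1%) and the MEF2 site in 2 (9.09% against 5.48%), both in Rara. The ETS site was in 4 (18.2%, interval 5.19% to 40.3%), against 33.3%. The ETS interval holds the share of all windows, as do those of the other motifs, so no difference could be resolved with 22 windows. The windows had a median GC content of 58.3%, against 53.0% for all optimal windows.

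The rest of the nuclear receptor family was counted by the same rule. Of 41 other nuclear receptor genes, 25 had an assigned peak (61.0%, against 31.8% of all genes). They held 54 peaks in all, where 49.8 would be in proportion to territory. Their density of 10.5 per Mb was near the 9.71 per Mb of all genes. Nr1d1 had 9 peaks and Nr4a1, an immediate early receptor without a classical hormone, 8. Esrrg, an orphan receptor of oxidative metabolism, had 4, Nr4a3, another immediate early receptor, had 3, and Rarb, retinoic acid receptor beta, had 3. With 10 peaks, Rara exceeded each of the 41 in number. In peaks per Mb of territory it did not lead. Rara had 186.1, below Nr1d1 (429.3), Esrra (258.7, on 2 peaks), Rxrb (239.1, on 1 peak) and Nr4a1 (220.2), and above the rest. The strongest peak of Rara, at 70.0, was below those of Nr1h4 (125.0), the bile acid receptor FXR and the highest of the 41, Nr1d1 (96.8), Nr4a3 (94.8) and Nr4a1 (87.8).

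Genes that make, carry, bind or break down these hormones and retinoids were counted too. Of 31 such genes, 10 had a peak (32.3%, against 31.8% of all genes), 27 peaks in all. Dhrs3, a retinaldehyde reductase that limits retinoic acid synthesis, held 12 of them, with a strongest signal of 87.1. Hsp90ab1, the chaperone that holds steroid receptors ready for hormone, had 5 peaks, 4 of them promoter-proximal, and Slco1c1, a thyroid hormone transporter, had 3. H6pd, which supplies the cofactor of Hsd11b1, had 1 promoter peak of 97.0, and Slc16a10, another thyroid hormone transporter, had 1 of 59.0. The retinoic acid synthases Aldh1a1, Aldh1a2 and Aldh1a3 and the degrading enzymes Cyp26a1, Cyp26b1 and Cyp26c1 had 0, as did the deiodinases Dio1 and Dio2.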

How the data were processed

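Peaks were called by the authors on mm10, per the file headers, with 2 control alignments for replicate 1, 1 for replicate 2 and 2 for the pooled reads. The aligner, the caller and the IDR cutoff were not given in the sources used here. The authors deposited a signal value per peak (height above control, formula not stated), a −log10 q and, in the IDR lists, a score of scaled IDR, which was not used for ranking. From these files, summits (start plus offset) on the main chromosomes (17339 of 17372 optimal peaks) were assigned to the nearest of 54391 TSSs of protein-coding GENCODE M21 transcripts within 100 kb. All intervals lay inside their GRCm38 chromosomes. Replicate calls were matched within 248 bp. No group comparison exists, so no test was run; shares have 95% exact intervals. The genes, lists and motifs were chosen with earlier results of these data known. Named were all 10 genes, up to 5 peaks each by signal and the 5 leading genes of each other list; further peaks and genes were named after their values were seen. The assignment and motif search were tested on simulated data. Alternatives covered lists, replicates, TSS sets, distances, merging and windows. Software was pysam 0.24.0, pandas 2.3.3, numpy 2.4.6, matplotlib 3.10.9 and SciPy 1.17.1 under Python 3.11.15.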

Additional observations from a re-analysis of the deposited data

How the results depend on the processing

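The number of genes with a peak was 5 in each alternative tried except replicate 2 alone, which gave 6, and a limit of 1 Mb, which gave 7 by adding Nr3c2 and Nr2f1. The peaks assigned lay between 17 and 30, and between 24 and 30 with 1 replicate alone. Several values moved beyond their interval. With a limit of 1 Mb the ratio of peak density to that of all genes was 0.736, against 1.29 at 100 kb, so its direction depends on the limit. With 1 replicate alone it was 1.40 to 1.79, and its interval excluded 1 for the conservative list, for a −log10 q of at least 2 and for replicate 2 alone. Those intervals count neighbouring peaks as independent, and Rara alone held 13 of 27, 9 of 17 and 13 of 30 peaks there. They are therefore no measure of the receptor genes as a set. The promoter-proximal share was 36.4% within 2 kb, and 20% to 20.8% with 1 replicate alone. The share found in both replicates was 13.6% for 5000 leading peaks. The steroid receptor element was in 0% of windows of 100 bp, and in 0% to 3.33% with 1 replicate alone. The AGGTCA half-site was in 0% of windows in the conservative list and after merging, and in 3.33% to 8.33% with 1 replicate alone. With windows of 400 bp it was in 13.6% (3 of 22), against 26.5% of all optimal windows. These motif shares rest on 0 to 3 windows. Of the 80 alternative values of the main results, 73 stayed within 1.5 times the count or within the interval, as did 86 of 105 for single genes. The leading peaks of the pooled list were added as an alternative after seeing the data. The depth is unknown, so a gene without a peak is one where none passed the authors' threshold, not one without EP300. No paired analysis was possible because only 1 group exists.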

Other observations

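Some leading pooled calls at these genes are not in the optimal list. Of the 25 leading pooled calls assigned to them, 7 (28.0%) are not in the optimal list, against 22.0% of all 17347 leading pooled calls on the main chromosomes, and 5 of the 7 stand in the conservative list. Of the 7, 6 have signals of 22.1 to 26.9, below the optimal list's median of 30.6. The strongest is an intronic call of Thra (37.2, chr11:98750446-98750941, mm10), 978 bp from an optimal summit, of rank 4484 in replicate 1 and 5066 in replicate 2. Thra also had such a call at its 5′ end (22.5, chr11:98740442-98740937), 52 bp from the gene start and 1121 bp upstream of the nearest protein-coding TSS, where the optimal list has none. At Nr3c1 a promoter call of 26.9 (chr18:39491426-39491921), 373 bp from a TSS, is in neither IDR list. It ranked 13947 in replicate 1 and 240359 in replicate 2. It is stronger than the promoter peak of 15.4 that the optimal list does hold. In the other direction, 4 of the 22 optimal peaks have a signal below every leading pooled call, against 3806 of all 17339. Neither share was far from that of the whole list.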
